A study of Mus musculus with 8 samples.

Results

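The comparison described here sets 6 microarrays of mouse thymic T cells of the regulatory lineage against 2 arrays of conventional T cells, and follows the changes that all 6 arrays share in direction. It used all 8 arrays of the series, 2 biological replicates of each of 4 sorted populations. The 6 lineage arrays were those titled WT-Treg, Nr4a-TKO-preTreg and Foxp3-KO-preTreg, and the 2 others were titled WT-Tconv. All cells were CD4 single-positive thymocytes, which have kept CD4 and lost CD8, and they were lysed without culture. The WT-Tconv gate took wild-type cells low in CD25, and the WT-Treg gate wild-type Foxp3+ cells. Nr4a-TKO-preTreg cells, of genotype Nr4a-TKO, were sorted for high CD25, high GITR and high Nr4a3. Foxp3-KO-preTreg cells, of genotype Foxp3-KO, were sorted for high CD25 and for a positive Foxp3 reporter. Wild-type precursors were not among the 4 populations, so in both precursor populations the genotype and the gate cannot be told apart. The labels do not name the strain or age of the mice, which exons of the Nr4a and Foxp3 genes are missing, or what drives any deletion.

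Regulatory T cells hold back immune responses against the body's own tissues, and many of them arise in the thymus from CD4 single-positive cells whose receptor binds self-antigen strongly. Such cells first gain CD25, the high-affinity chain of the IL-2 receptor, and costimulatory TNF receptors such as GITR. Foxp3, the transcription factor of the lineage, follows in response to IL-2 and STAT5 signals. The Nr4a factors are nuclear receptors switched on quickly by T cell receptor signals, and they take part in inducing Foxp3. What WT-Treg cells share with precursors labelled as lacking the Nr4a factors or Foxp3 is the question of this comparison.

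Values are log2 signals on a scale on which the 75th percentile of each array is 0, for the brightest probe of each gene. Of 21154 genes, 13498 were well above background on both arrays of at least 1 population and were tested. Between 47.7% and 52.1% of probes per array were well above background, and replicates correlated at 0.976 (Foxp3-KO-preTreg) to 0.997 (WT-Tconv) across genes, which are not independent replicates. Nr4a-TKO-preTreg replicate 2 stood apart in genes of sex: Xist, the RNA of X inactivation, was 1.31 there and not above background on the other 7 arrays, while the Y-linked Ddx3y was 1.25 there and between 2.32 and 2.76 elsewhere. A difference is the mean of the 3 lineage populations minus WT-Tconv, given as log2 ± SE from limma with 2 arrays per population, and its adjusted p is Benjamini-Hochberg over all tested genes. A gene was called at an adjusted p under 0.05. It is named shared higher or shared lower where it was called and each of the 6 lineage arrays also lay beyond both WT-Tconv arrays. The smallest gap of a gene is the distance on the log2 scale from the lineage array nearest to WT-Tconv to the nearest WT-Tconv array. Values without either WT-Tconv array come from leaving out each of the 2 in turn. This lowered the shared counts over all tested genes, so a lower count in a list is not particular to that list. Counts within a list stand beside the shares over all tested genes, 13% shared higher and 21.2% shared lower. In RNA from whole sorted populations, a change in how many cells express a gene and a change in the amount per cell cannot be told apart.

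The lineage arrays shared 4618 changes, 34.2% of the genes tested. Of these, 1751 were shared higher (13%) and 2867 shared lower (21.2%). With the 6 lineage arrays treated as a single group, which adds the spread between populations to the error, 636 genes were shared higher and 840 lower. The counts also fell strongly when either WT-Tconv array was left out. In the main comparison the shared increases were fewer and larger than the decreases. Their median difference was 1.37, against -0.47 for the decreases and -0.10 for all tested genes. In 388 shared higher and 100 shared lower genes every lineage array stood at least 2-fold (1 log2 unit) beyond WT-Tconv, and a smallest gap of at least 3 log2 units was reached by 54 higher and 3 lower genes. Called genes numbered 5939 (44%), 2400 higher (17.8%) and 3539 lower (26.2%), of which 649 and 672 overlapped WT-Tconv on some array. Whatever their p, the lineage arrays all lay above both WT-Tconv arrays in 1972 genes (14.6%) and below both in 3592 (26.6%), together 41.2%. With each array scaled to its median, the median of all genes moved from -0.10 to -0.23, and 2009 genes were called higher and 5311 lower. The populations were also tested 1 at a time against the same WT-Tconv arrays, which these comparisons therefore share. Genes called higher and lower were 13.8% and 21.5% in WT-Treg, 21.4% and 26.8% in Nr4a-TKO-preTreg, and 10.4% and 14.3% in Foxp3-KO-preTreg, and 768 genes (5.69%) were higher and 949 (7.03%) lower in all 3. The largest adjusted p of a shared gene was 0.04999, and the smallest among genes without overlap that were not called was 0.05002.

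The genes of the sort gates and the targeted genes were read first. Foxp3 lay at -3.40 and -3.79 in WT-Tconv, at 5.0 and 4.72 in WT-Treg, at 3.80 and 3.25 in Nr4a-TKO-preTreg and at 1.97 and 1.74 in Foxp3-KO-preTreg. All 6 lineage arrays were thus far above WT-Tconv, with the arrays labelled Foxp3-KO the lowest of them, for a mean difference of 7.01 ± 0.19 (129-fold, limma adjusted p = 8.16e-05). Il2ra, which encodes CD25, was at -1.58 and -1.79 in WT-Tconv and between 3.73 and 6.20, median 5.75, on the lineage arrays (6.94 ± 0.19, adjusted p = 8.16e-05). Tnfrsf18, which encodes GITR, was at 4.86 and 4.94 in WT-Tconv and rose by 1.85 ± 0.09 (adjusted p = 0.000303). WT-Tconv was gated for low CD25 and both precursor populations for high CD25, so the increase of Il2ra restates the sort at least in part in every comparison. Foxp3, GITR and Nr4a3 were gated on in some of the lineage populations, Nr4a3 in Nr4a-TKO-preTreg, so their increases partly restate the sort too. Counts of lists that hold these genes include them. Of the Nr4a genes, Nr4a2 rose most. It was at -1.51 and -1.56 in WT-Tconv and between 1.26 and 3.87 on the lineage arrays (3.89 ± 0.17, adjusted p = 0.000195), and its highest values were those of Nr4a-TKO-preTreg. Nr4a3 (1.36 ± 0.37, adjusted p = 0.0319) and Nr4a1 (0.72 ± 0.15, adjusted p = 0.0151) were shared higher by smaller steps, and both calls ended when either WT-Tconv array was left out. The probes for Foxp3 and the Nr4a genes may lie outside the deleted parts, so they check no genotype. Cd4 was shared lower by a small step, from 5.64 on both WT-Tconv arrays to between 5.0 and 5.44 (-0.49 ± 0.07, adjusted p = 0.00567), a call that also ended when either was left out. All 10 tested T cell markers, Cd3e and Lck among them, were well above background on every array. Of these, 7 (70%), Cd3e and Lck included, were shared lower, beside 21.2% of all tested genes. The calls ended when either WT-Tconv array was left out, which also cut the shared lower genes as a whole.

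Among genes above background on all 8 arrays, the increase with the largest smallest gap was that of Lrrc32, which encodes GARP, the surface protein that holds latent TGF-beta on regulatory T cells. It was at -3.15 and -4.11 in WT-Tconv, 6.40 and 6.30 in WT-Treg, 5.03 and 3.74 in Nr4a-TKO-preTreg, and 4.48 and 4.24 in Foxp3-KO-preTreg. The lowest lineage array was thus 6.89 log2 units above the nearest WT-Tconv array, and the mean difference was 8.66 ± 0.40 (406-fold, limma adjusted p = 0.000252). Rgs16, a brake on G protein signalling, was next after Il2ra. Its WT-Tconv values were -3.66 and -3.39, and its lineage values ran from 1.90 to 3.20 with a median of 2.73 (6.19 ± 0.25, adjusted p = 0.000156). The 3 lineage populations did not differ past the threshold in Rgs16 (limma F-test among them, adjusted p = 0.226), unlike in Lrrc32 (adjusted p = 0.0365) and Foxp3 (adjusted p = 0.00236). Prr5l, which binds mTOR complex 2 and limits it, was at -2.41 and -2.92 in WT-Tconv. It reached 3.26 and 3.07 in WT-Treg, 2.61 and 3.02 in Nr4a-TKO-preTreg, and 4.29 and 4.13 in Foxp3-KO-preTreg (6.06 ± 0.18, adjusted p = 8.75e-05). Here the arrays labelled Foxp3-KO stood highest, whereas in Foxp3 itself they stood lowest.

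**Figure D1:**
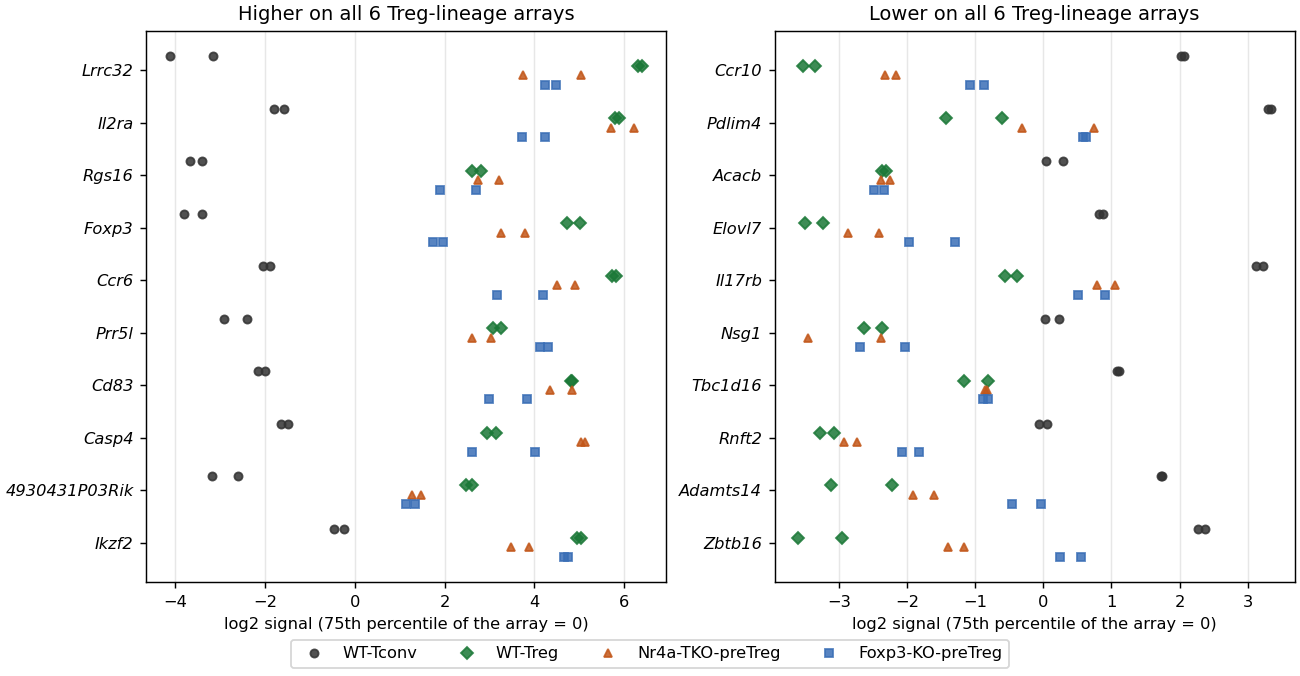
Log2 signal (x axis, 75th percentile of the array = 0) on each of the 8 arrays for the 10 shared higher genes (left) and the 10 shared lower genes (right) with the largest smallest gap among genes above background on all arrays; each point is an array and its shape and colour give the population. The WT-Tconv points stand apart from all 6 lineage points in every gene, by 6.89 log2 units for Lrrc32 and 2.89 for Ccr10, while the lineage points of Foxp3 and Zbtb16 are spread widely.

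The other leading increases came from several roles. Ccr6, a receptor for the chemokine CCL20, rose from -2.04 and -1.89 to between 3.17 and 5.81 (6.68 ± 0.28, adjusted p = 0.000177). Cd83, a surface protein of activated lymphocytes and dendritic cells, rose from -1.99 and -2.16 to between 2.99 and 4.83 (6.35 ± 0.25, adjusted p = 0.000156). Casp4, an inflammatory caspase, was at -1.49 and -1.65 in WT-Tconv and between 2.61 and 5.13 on the lineage arrays (5.38 ± 0.35, adjusted p = 0.000639). In each of the 3 genes the lowest lineage array was Foxp3-KO-preTreg replicate 2. Ikzf2, which encodes Helios, a zinc finger factor of thymic regulatory T cells, lay at -0.25 and -0.46 in WT-Tconv and at 5.04 and 4.94 in WT-Treg. It was 3.88 and 3.48 in Nr4a-TKO-preTreg and 4.66 and 4.74 in Foxp3-KO-preTreg (4.81 ± 0.12, 28.0-fold, adjusted p = 8.16e-05). The uncharacterised gene 4930431P03Rik stood beside these, rising from -3.17 and -2.60 to between 1.14 and 2.61 (4.61 ± 0.17, adjusted p = 0.000143).

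Some genes of the shared rise were undetected in conventional T cells. Of the 1751 shared higher genes, 460 were not well above background on either WT-Tconv array, and 118 of these were well above it on all 6 lineage arrays. Such folds are approximate lower bounds, taken from means of the normalized log2 values. The WT-Tconv level was the measured signal, raised to a floor where it lay below that floor. The floor, -5.26 and -4.43 on WT-Tconv replicates 1 and 2, was the dimmest signal of any probe well above background. Undetected probes could lie above this floor, so it is not a detection limit. Penk, the precursor of the enkephalin peptides, was at least 841-fold higher, with lineage values of 4.86 and 5.18 in WT-Treg, 5.73 and 5.05 in Nr4a-TKO-preTreg, and 5.02 and 3.37 in Foxp3-KO-preTreg. Penk did not differ past the threshold among the 3 populations (limma F-test adjusted p = 0.232). Ebi3, a subunit shared by IL-27 and IL-35, was at least 128-fold higher, and Il1r2, the decoy receptor for IL-1, at least 149-fold. Both differed among the populations (adjusted p = 0.0194 and 0.00752), with the lowest values in Foxp3-KO-preTreg. Zbtb32, a repressor induced by T cell activation, was at least 106-fold higher, and its Nr4a-TKO-preTreg values of 4.69 and 4.66 lay far above the 1.20 and 1.03 of WT-Treg. Lilrb4a, at least 123-fold higher, is also on the list of myeloid markers.

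Markers of myeloid and B cells moved with the lineage arrays, and their part in the results was not tested. Of 21 tested myeloid and dendritic cell markers, 16 were shared higher and 0 lower, and of 11 tested B cell markers 5 were shared higher and 0 lower. C1qa, a complement gene of macrophages, was not above background in WT-Tconv and lay between -1.37 and 2.95 on the lineage arrays, at least 47.1-fold higher (limma adjusted p = 0.00356). The B cell gene Ms4a1 was below background in WT-Tconv and above it on 5 of the 6 lineage arrays, with a span of -4.06 to 3.75 over the 6. The summed linear level of 13 B cell markers was 2.97 and 2.80 in WT-Tconv, 7.32 and 5.79 in WT-Treg, 90.4 and 21.2 in Nr4a-TKO-preTreg, and 43.0 and 8.40 in Foxp3-KO-preTreg. For 23 myeloid markers it was 394 and 413 in WT-Tconv, 457 and 414 in WT-Treg, 691 and 559 in Nr4a-TKO-preTreg, and 557 and 443 in Foxp3-KO-preTreg, and each of these sums includes Siglech, which was bright on all arrays (8.35 to 8.61). Between 17 and 20 of the myeloid markers were above background on a lineage array, against 11 on each WT-Tconv array. Cd163 and Xcr1 were above it on no array. In each lineage population replicate 1 had the higher sums. Without both Nr4a-TKO-preTreg arrays 11 myeloid and 1 B cell markers were shared higher, without WT-Tconv replicate 1 the counts were 6 and 0, and without WT-Tconv replicate 2 they were 5 and 0. Of the markers of other cells, 2 of 10 stromal markers were shared higher and 1 lower, 1 of 8 granulocyte markers higher and 1 lower, and 0 of 10 markers of CD8 and double-positive thymocytes higher and 2 lower.

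Replicate pairs differed more in some groups of shared genes than in others. Among the 16 shared higher myeloid markers, 15 were higher in replicate 1 than in replicate 2 of all 3 lineage populations, and in 0 of them did all 3 replicate pairs lie within 0.5 log2 units. In the 12 shared higher NF-kB genes all 3 pairs lay within 0.5 in each gene. Of the 29 shared higher regulatory T cell genes, 7 were higher in replicate 1 throughout, and 6 had all pairs within 0.5. Over all 388 shared higher genes with a smallest gap of at least 1, the counts were 171 (44.1%) and 78 (20.1%), beside 16.1% and 72.9% of all tested genes. Among those 78, the 9 genes above background on all arrays with the largest smallest gaps were Prr5l, 4930431P03Rik, Ikzf2, Dusp4, Neurl3, Tgif1, Cd200, Hip1r and Pou2f2. Cd200, an inhibitory ligand, was 0.68 and 0.75 in WT-Tconv, 3.51 on both WT-Treg arrays, 3.92 and 4.07 in Nr4a-TKO-preTreg, and 3.49 and 3.47 in Foxp3-KO-preTreg.

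**Figure D2:**
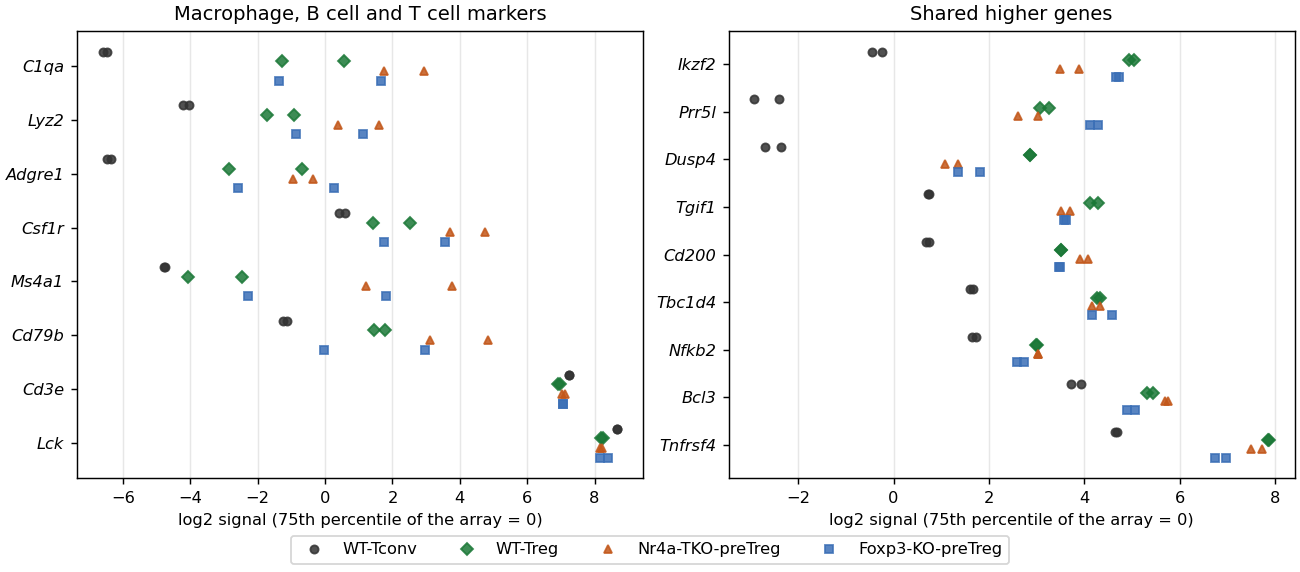
Log2 signal (x axis, 75th percentile of the array = 0) on each of the 8 arrays for macrophage, B cell and T cell markers (left) and for 9 shared higher genes chosen as examples (right); each point is an array. The replicates of a lineage population lie apart in C1qa and Ms4a1, while those of Cd200, which lie between 3.47 and 4.07 on the lineage arrays, and of Nfkb2 lie close together.

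Of 39 tested genes known from regulatory T cells, 29 were shared higher and 1 lower, with a median difference of 4.14. By share, at 74.4%, the list came just after the myeloid and dendritic markers (76.2%). Beside those named above, the inhibitory receptor Ctla4 was -3.16 and -3.69 in WT-Tconv and between 0.40 and 4.17 on the lineage arrays (5.80 ± 0.27, adjusted p = 0.000262). Ikzf4, which encodes Eos, a partner of Foxp3, rose by 2.90 ± 0.14 (adjusted p = 0.000271), but unevenly: the difference was 4.11 in WT-Treg, 3.43 in Foxp3-KO-preTreg and 1.14 in Nr4a-TKO-preTreg. The exception in direction was the chemokine receptor Ccr4 (-1.09 ± 0.16, adjusted p = 0.00519). Of these members, 26 were shared higher when both Nr4a-TKO-preTreg arrays were left out, and also when either WT-Tconv array was.

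Handling of TGF-beta, which regulatory T cells both display and respond to, changed in a few of its parts. Of 21 tested genes, 5 were shared higher and 4 lower, and the median was 0.23. At 19%, the shared lower genes were no larger a share than the 21.2% of all tested genes. With Lrrc32 went Itgb8, the integrin chain that releases active TGF-beta from its latent form, which was not above background in WT-Tconv, lay between -3.08 and -1.24 on the lineage arrays and was at least 6.17-fold higher (adjusted p = 0.000831). Tgif1, a co-repressor of SMAD targets, was 0.74 and 0.72 in WT-Tconv, 4.12 and 4.29 in WT-Treg, 3.70 and 3.52 in Nr4a-TKO-preTreg, and 3.58 and 3.62 in Foxp3-KO-preTreg (3.07 ± 0.08, adjusted p = 8.16e-05). The type I receptor Tgfbr1 rose (1.43 ± 0.11, adjusted p = 0.000926), and the type II receptor Tgfbr2 (-0.47 ± 0.07, adjusted p = 0.00490) and the accessory receptor Tgfbr3 (-1.64 ± 0.19, adjusted p = 0.00267) fell. With both Nr4a-TKO-preTreg arrays left out 8 genes of the list were shared higher.

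Co-inhibitory and costimulatory receptors were largely on the higher side, with 13 of 24 tested genes shared higher, 2 lower and a median of 0.94. Pdcd1, which encodes PD-1, rose by 2.11 ± 0.19 (adjusted p = 0.00158), and Lag3 by 4.93 ± 0.69 (adjusted p = 0.00455), with Lag3 spread over 5.73 log2 units among the lineage arrays and above background on 1 of the 2 WT-Tconv arrays. Havcr2, which encodes TIM-3, was at least 24.1-fold higher. Klrg1 and Tigit were below background in WT-Tconv and above it on 5 of the 6 lineage arrays. Cd28, the main costimulatory receptor, was shared lower (-0.41 ± 0.11, adjusted p = 0.0287). When the 6 lineage arrays were treated as a single group, 5 genes of this list were shared higher.

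TNF receptors and the NF-kB pathway they signal through showed small steps beside some large ones. Of 22 tested TNF receptor genes, 8 were shared higher and 2 lower (median 0.61), and of 30 NF-kB genes 12 were shared higher and 2 lower (median 0.16). Among these shared genes, 3 of the TNF receptor list and 8 of the NF-kB list differed among the lineage populations by the F-test. Tnfrsf4, which encodes the costimulatory receptor OX40, was at 4.65 and 4.68 in WT-Tconv and between 6.74 and 7.87 on the lineage arrays (2.78 ± 0.10, adjusted p = 0.000142). Tnfrsf1b, the TNF receptor of regulatory T cells, rose by 2.39 ± 0.25 (adjusted p = 0.00220) with no difference past the threshold among the populations (F-test adjusted p = 0.588). Cd40, better known from B cells and dendritic cells, was at least 18.9-fold higher than its undetected WT-Tconv level. Among the NF-kB subunits, Nfkb2 was 1.64 and 1.72 in WT-Tconv, 3.0 and 2.98 in WT-Treg, 3.02 and 3.03 in Nr4a-TKO-preTreg, and 2.58 and 2.73 in Foxp3-KO-preTreg (1.21 ± 0.06, adjusted p = 0.000347). Nfkb1 (0.83 ± 0.09, adjusted p = 0.00261) and Relb (0.77 ± 0.07, adjusted p = 0.00130) were shared higher too, and Rela (0.10, adjusted p = 0.223) did not pass. The inhibitors and feedback genes of the pathway were shared higher as well. Nfkbia, which encodes IkB-alpha, rose from 5.91 and 5.97 to between 6.65 and 6.85, a range of 0.21 over the 6 arrays (0.82 ± 0.07, adjusted p = 0.00107), and Bcl3, an atypical IkB protein, rose by 1.53 ± 0.09 (adjusted p = 0.000441). Traf4, an adaptor of the TNF receptor family, was shared lower (-0.85 ± 0.13, adjusted p = 0.00605).

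In the IL-2 receptor and STAT5 list, 9 of 24 tested genes were shared higher and 5 lower, and the median was 0.08. The shared lower share, 20.8%, was not above the 21.2% of all tested genes. The higher members held 2 of the receptor's chains and products of its signal, but Il2ra was itself a gene of the CD25 gates. After Il2ra these were Socs2 (4.35 ± 0.42, adjusted p = 0.00176) and Cish (2.67 ± 0.09, adjusted p = 0.000113), feedback inhibitors that STAT5 switches on, and Il2rb, the shared beta chain (1.98 ± 0.22, adjusted p = 0.00242). Cish lay at 2.43 and 2.36 in WT-Tconv and between 4.20 and 5.57 on the lineage arrays, lowest in Foxp3-KO-preTreg. The kinase Jak3 (1.0 ± 0.07, adjusted p = 0.000681) and Stat5a itself (1.14 ± 0.09, adjusted p = 0.000938) rose. The common gamma chain Il2rg (-0.40 ± 0.07, adjusted p = 0.00857) and the survival gene Bcl2 (-0.87 ± 0.15, adjusted p = 0.00837) were shared lower. The Bcl2 difference was -1.74 in Nr4a-TKO-preTreg, -0.36 in WT-Treg and -0.51 in Foxp3-KO-preTreg. With median scaling the list's median was -0.04, and without either WT-Tconv array 0 of its genes were shared lower.

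Genes that respond early to the T cell receptor were partly higher, while genes that carry its first signals were mainly lower. Of 32 early response genes, 12 were shared higher and 3 lower, with a median of 0.49. Of 30 proximal signalling genes, 3 were shared higher and 17 lower, with a median of -0.33, beside -0.10 for all genes. Dusp4, a phosphatase of ERK, rose from -2.70 and -2.37 to 2.86 on both WT-Treg arrays, 1.08 and 1.34 in Nr4a-TKO-preTreg, and 1.81 and 1.36 in Foxp3-KO-preTreg (4.42 ± 0.16, adjusted p = 0.000142). Spry1, a second kind of ERK brake, rose by 4.56 ± 0.20 (adjusted p = 0.000202), and Rgs1 by 4.14 ± 0.18 (adjusted p = 0.000217). Dusp6, another ERK phosphatase, was shared lower (-0.86 ± 0.06, adjusted p = 0.000765), as was Egr1, an immediate early factor (-0.42 ± 0.09, adjusted p = 0.0162). In the list of ERK feedback genes 3 of 17 were shared higher and 6 lower (median -0.08), and 2 were lower without either WT-Tconv array. Of the signalling genes, the adaptor Lat fell from 6.68 and 6.77 to between 5.68 and 6.15 (-0.86 ± 0.12, adjusted p = 0.00451). The kinase Lck fell from 8.67 and 8.65 to between 8.16 and 8.41 (-0.43 ± 0.08, adjusted p = 0.0107). The kinase Txk (-1.11 ± 0.09, adjusted p = 0.000990) and the adaptor Grap2 (-0.98 ± 0.08, adjusted p = 0.00126) fell more, and most in Nr4a-TKO-preTreg. The members that rose were inhibitors of the signal: Cblb, a ubiquitin ligase (0.91 ± 0.11, adjusted p = 0.00307), Ptpn22 (0.78 ± 0.10, adjusted p = 0.00405) and Ubash3b (1.1 ± 0.16, adjusted p = 0.00538), both phosphatases. Without WT-Tconv replicate 1 the signalling genes had 5 shared lower members, and without replicate 2 they had 4.

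Among regulators of PI3K, mTOR and AKT, 6 of 29 tested genes were shared higher and 3 lower. Tbc1d4, a target of AKT that controls glucose transporter traffic, was at 1.61 and 1.66 in WT-Tconv, 4.26 and 4.32 in WT-Treg, 4.32 and 4.15 in Nr4a-TKO-preTreg, and 4.57 and 4.17 in Foxp3-KO-preTreg (2.66 ± 0.12, adjusted p = 0.000224). It showed no difference past the threshold among the lineage populations (F-test adjusted p = 0.717). The AKT phosphatase Phlpp1 rose (1.51 ± 0.15, adjusted p = 0.00191). In glycolysis and glucose uptake 7 of 22 tested genes were shared higher and 1 lower, around a median of 0.10 that was -0.03 with median scaling or without both Nr4a-TKO-preTreg arrays. The lactate exporter Slc16a3 was 0.01 and -0.01 in WT-Tconv and between 2.36 and 3.26 on the lineage arrays (2.70 ± 0.12, adjusted p = 0.000195). Hexokinase 2, Hk2, rose by 2.12 ± 0.20 (adjusted p = 0.00162), and Pdk1, a pyruvate dehydrogenase kinase, fell by 1.23 on the log2 scale (SE 0.07, adjusted p = 0.000473). Both differed among the lineage populations, with Nr4a-TKO-preTreg farthest from WT-Tconv. The count of 7 became 4 when either WT-Tconv array or both Nr4a-TKO-preTreg arrays were left out.

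Transcription factors of helper lineages included 13 shared higher and 2 lower among 28 tested, with a median of 0.97. After Ikzf2 the smallest gap was largest for Bhlhe40, a repressor of cytokine genes such as Il10 (4.63 ± 0.34, adjusted p = 0.000882). Irf8 was 0.98 and 1.03 in WT-Tconv and between 2.73 and 3.67 on the lineage arrays (2.17 ± 0.19, adjusted p = 0.00143), and Bcl6, a factor of follicular helper cells, rose by 1.79 ± 0.17 (adjusted p = 0.00174). Ikzf1, which encodes Ikaros, moved the other way from its relatives Ikzf2 and Ikzf4: it was shared lower by -1.04 ± 0.10 (adjusted p = 0.00174). Runx1 was the other lower member (-0.56 ± 0.06, adjusted p = 0.00225). Gata3 (-0.03, adjusted p = 0.650) and Tbx21 (-0.53, adjusted p = 0.513), factors of Th2 and Th1 cells, did not pass.

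Of 28 tested cytokine genes, 10 were shared higher and 3 lower (median 1.05). Lta, a ligand of TNF receptors, was 1.25 and 1.32 in WT-Tconv and between 2.81 and 3.34 on the lineage arrays (1.71 ± 0.09, adjusted p = 0.000346). Il10, a suppressive cytokine, was not above background in WT-Tconv and was above it on 5 of 6 lineage arrays (adjusted p = 0.0122). Csf2, which encodes GM-CSF, was lower (-2.48 ± 0.48, adjusted p = 0.0120, above background on 4 of 6 lineage arrays), as was Cd40lg, the helper ligand for CD40 (-1.97 ± 0.22, adjusted p = 0.00256, above background on 3 of 6). In the survival list 7 of 21 genes were shared higher and 1 lower (median 0.18). Pmaip1, which encodes the death-promoting protein NOXA, led it (4.78 ± 0.28, adjusted p = 0.000485, above background on 1 of the 2 WT-Tconv arrays), followed by Gadd45b, a stress-response gene (2.17 ± 0.13, adjusted p = 0.000538). Without either WT-Tconv array 4 survival genes were shared higher. Handling stress genes were shared higher in 4 of 18 and lower in 1, and higher in 7 without Foxp3-KO-preTreg replicate 2.

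Among receptors for position and contact the shared lower shares, 18.8% of chemokine receptors and 13.3% of adhesion genes, were not above the 21.2% of all tested genes. Of 16 tested chemokine receptors, 6 were shared higher and 3 lower (median 0.98). Beside Ccr6, the follicular receptor Cxcr5 rose from -4.03 and -3.88 to between -1.40 and 3.34 (5.46 ± 0.79, adjusted p = 0.00509), and that call ended without WT-Tconv replicate 1. Without both Nr4a-TKO-preTreg arrays 4 chemokine receptors were shared higher and 4 lower, and without either WT-Tconv array 3 were shared higher. Integrin and adhesion genes were shared higher in 13 of 30 and lower in 4 (median 0.55). Nrp1 (3.67 ± 0.39, adjusted p = 0.00228) and Nrp2 (5.13 ± 0.35, adjusted p = 0.000698), co-receptors for semaphorins, were among them, and Cd44, a marker of activated cells, rose by 1.49 ± 0.16 (adjusted p = 0.00242). The integrin chain Itgb3 fell (-2.24 ± 0.19, adjusted p = 0.00134). Of 13 genes for enzymes and receptors of extracellular purines, 7 were shared higher and 2 lower (median 1.06). They included Nt5e, which encodes CD73, the enzyme that makes adenosine outside the cell (2.72 ± 0.29, adjusted p = 0.00225), and the ATP-gated channel P2rx7 (2.09 ± 0.12, adjusted p = 0.000495). Without both Nr4a-TKO-preTreg arrays 6 of these genes were shared higher, and without WT-Tconv replicate 1 there were 4. Of 11 RGS genes, 3 were shared higher and 3 lower, and Rgs9, undetected in conventional cells, was at least 52.9-fold higher.

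**Figure D3:**
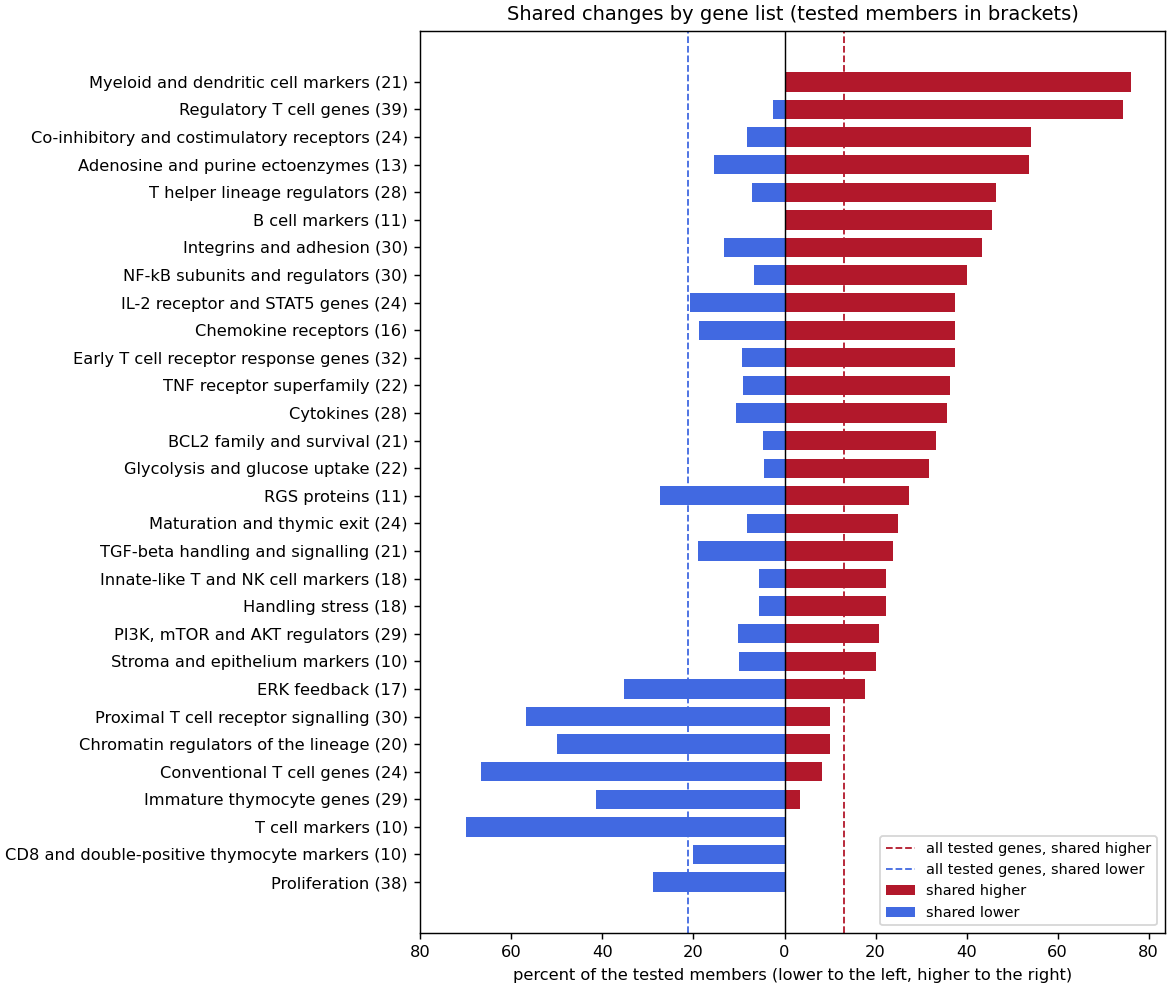
Percent of the tested members of each gene list that were shared higher (red bars, to the right) or shared lower (blue bars, to the left), with the number of tested members in brackets; only lists with at least 10 tested members are drawn, and the dashed lines give the 13% and 21.2% of all tested genes. Regulatory T cell genes and myeloid markers have the longest red bars, and the longest blue bars belong to T cell markers, conventional T cell genes and proximal T cell receptor signalling genes.

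Among genes above background on all 8 arrays, the shared decrease with the largest smallest gap was that of Ccr10, a receptor for the chemokines CCL27 and CCL28. It was at 2.02 and 2.06 in WT-Tconv, -3.52 and -3.36 in WT-Treg, -2.17 and -2.33 in Nr4a-TKO-preTreg, and -1.07 and -0.87 in Foxp3-KO-preTreg (-4.26 ± 0.09, 19.2-fold lower, limma adjusted p = 7.83e-05). By signal the order of the lineage populations was the reverse of that in Foxp3. By distance it was the same, with WT-Treg farthest from WT-Tconv and Foxp3-KO-preTreg nearest in both genes. Pdlim4, a cytoskeletal adaptor, fell from 3.34 and 3.30 to between -1.43 and 0.74 (-3.39 ± 0.33, adjusted p = 0.00177). Elovl7, which lengthens long-chain fatty acids, fell from 0.82 and 0.87 to between -3.50 and -1.30 (-3.40 ± 0.21, adjusted p = 0.000576). Acacb, the acetyl-CoA carboxylase that restrains fatty acid oxidation, was the most even of the 267 shared decreases of at least 2-fold among genes above background on all 8 arrays. It was 0.28 and 0.04 in WT-Tconv, -2.37 and -2.30 in WT-Treg, -2.39 and -2.26 in Nr4a-TKO-preTreg, and -2.34 and -2.49 in Foxp3-KO-preTreg (-2.52 ± 0.09, adjusted p = 0.000143). Il17rb, the receptor for IL-25, fell by 2.79 on the log2 scale (SE 0.14, adjusted p = 0.000303). Zbtb16, which encodes PLZF, the factor of innate-like T cells, was 2.37 and 2.28 in WT-Tconv and spread from -3.59 to 0.56 on the lineage arrays (-3.71 ± 0.19, adjusted p = 0.000323). In the list of innate-like T and NK cell markers 4 of 18 genes were shared higher and 1, Zbtb16, lower. That lower count was 10 without Foxp3-KO-preTreg replicate 1. Nsg1, Tbc1d16, Rnft2 and Adamts14 completed the 10 leading decreases, with differences of -1.98 to -3.29.

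Loss to below background was rarer than gain. Of the shared lower genes, 48 were above background on both WT-Tconv arrays and on none of the 6 lineage arrays. The bounds were small because these genes were dim in WT-Tconv. Dmbt1, a scavenger receptor gene better known from epithelia, was at -1.01 and -1.28 there and at least 8.14-fold lower in the lineage, and the syndecan gene Sdc2 was at least 3.92-fold lower. Henmt1, which methylates small RNAs, was at least 3.69-fold lower, Robo1, a guidance receptor, at least 3.30-fold, and Hs3st3b1, which modifies heparan sulfate, at least 3.14-fold.

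Genes characteristic of conventional T cells were lower in 16 of 24 tested and higher in 2, with a median of -1.06. Zbtb7b, which encodes ThPOK, the factor that commits thymocytes to the CD4 lineage, fell by 1.06 on the log2 scale (SE 0.13, adjusted p = 0.00360), to between 5.51 and 6.08. The chromatin organiser Satb1 (-1.64 ± 0.23, adjusted p = 0.00454) and the factor Lef1 (-1.37 ± 0.21, adjusted p = 0.00614) fell most in Nr4a-TKO-preTreg and least in Foxp3-KO-preTreg, and Tcf7, the partner of Lef1, fell by a smaller step (-0.57 ± 0.13, adjusted p = 0.0193). Igfbp4, which binds insulin-like growth factors, went from 2.28 and 2.21 to between -0.90 and 0.60 (-2.52 ± 0.26, adjusted p = 0.00216). With both Nr4a-TKO-preTreg arrays left out 12 members were shared lower, and with either WT-Tconv array left out 9.

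Immature thymocyte genes were shared lower in 12 of 29 and higher in 1 (median -0.61). Ccr9, the receptor that guides thymocytes toward CCL25, fell from 5.87 and 5.88 to between 0.45 and 4.59 (-3.29 ± 0.41, adjusted p = 0.00351). Itm2a (-2.11 ± 0.31, adjusted p = 0.00526) and Dntt, the enzyme that adds bases at receptor gene joints (-2.10 ± 0.30, adjusted p = 0.00476), fell with it, and both stayed nearest to WT-Tconv in Foxp3-KO-preTreg. The higher member was Myb, a factor of progenitor cells. It was 2.34 and 2.24 in WT-Tconv, 3.88 and 3.79 in WT-Treg, 3.84 and 4.08 in Nr4a-TKO-preTreg, and 4.22 and 4.26 in Foxp3-KO-preTreg (1.72 ± 0.08, adjusted p = 0.000280). In the list of thymocyte maturation and exit, 6 of 24 genes were shared higher and 2 lower (median 0.36), with the factor Klf6 (1.20 ± 0.14, adjusted p = 0.00311) and the MHC class I genes H2-Q7, H2-D1 and H2-K1 among the higher. Immature genes shared lower were 5 without either WT-Tconv array, and maturation genes shared higher were 10 without both Nr4a-TKO-preTreg arrays. With Nr4a-TKO-preTreg alone, in the slide row of WT-Tconv, the maturation list turned, with 8 genes higher, 10 lower and a median of -0.24.

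Of 20 chromatin regulators, 10 were shared lower and 2 higher (median -0.43). The DNA methyltransferase Dnmt3b was 2.29 and 2.19 in WT-Tconv and between 1.32 and 1.49 on the lineage arrays (-0.84 ± 0.07, adjusted p = 0.00106), with no difference past the threshold among the populations (F-test adjusted p = 0.518). Tet1, which oxidises methylated cytosine, fell by 1.99 on the log2 scale (SE 0.24, adjusted p = 0.00325), and its relative Tet2 was higher by a small step (0.41 ± 0.06, adjusted p = 0.00639). Hdac9, a histone deacetylase, was below background in WT-Tconv and rose at least 8.85-fold. Proliferation genes were mostly lower in the mean of the 3 populations. Of 38 tested, 30 were called lower and 0 higher, beside 26.2% and 17.8% of all tested genes. Because other members overlapped WT-Tconv on some lineage array, only 11 (28.9%) were shared lower, not far above the 21.2% of all tested genes. Kif23, a kinesin of cell division, had the largest gap, falling from 1.68 and 1.56 to between -1.29 and 0.09 (-2.17 ± 0.14, adjusted p = 0.000607), and the replication helicase subunit Mcm3 fell by 0.64 on the log2 scale (SE 0.05, adjusted p = 0.00126). Mki67, the standard marker of cycling cells, was called lower (-0.53 ± 0.08, adjusted p = 0.00557), at -1.33 in WT-Treg and 0.15 in Nr4a-TKO-preTreg, and was not a shared change. The shared lower count was 29 without both Nr4a-TKO-preTreg arrays and 7 without either WT-Tconv array. The list's median of -0.48 turned to 0.07 within the slide row of WT-Tconv, that is with Nr4a-TKO-preTreg alone. There 7 of its genes were higher and 4 lower, beside 21.4% and 26.8% of all tested genes.

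Changes shared in direction were often unequal in size. The F-test among the 3 lineage populations, which does not use the WT-Tconv mean, called 914 of the 1751 shared higher genes (52.2%) and 936 of the 2867 shared lower genes (32.6%), beside 38.5% of all tested genes. Among the 1074 shared higher genes with a mean difference of at least 2-fold, Nr4a-TKO-preTreg stood farthest from WT-Tconv in 733, WT-Treg in 229 and Foxp3-KO-preTreg in 112. Their median differences were 2.93, 1.79 and 1.78. Among the 414 such decreases the counts were 242, 146 and 26, with medians of -1.89, -1.50 and -1.13. The Nr4a-TKO-preTreg and WT-Tconv arrays shared a row of the slide, and the other 4 arrays lay in the other row. Nr4a-TKO-preTreg replicate 1 also had the highest summed levels of B cell and myeloid markers of all arrays, 90.4 and 691. The part of these markers in the counts was not tested.

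The most even increases of at least 2-fold, among genes above background on all 8 arrays, were of moderate size. Mapkapk2, a kinase downstream of p38, was at 1.22 and 1.17 in WT-Tconv, 2.62 and 2.60 in WT-Treg, 2.78 and 2.77 in Nr4a-TKO-preTreg, and 2.63 and 2.56 in Foxp3-KO-preTreg, a range of 0.22 (1.46 ± 0.05, adjusted p = 0.000143). Tdrd7, Sat1, which acetylates polyamines, 1700029J07Rik and Ptger4, a receptor for prostaglandin E2, followed, with differences of 1.07 to 1.70. For these 5 genes the F-test had adjusted p of 0.111 to 0.967. After Acacb the most even decreases were Mvb12b, Tbc1d16, Bbs9 and Atn1, with differences of -1.04 to -1.98. Of these 4 only Bbs9 passed the F-test (adjusted p = 0.0448). The even increases and decreases were picked for a small range over the same lineage arrays that the F-test compares. A lack of difference among the populations therefore follows largely from the choice and is a description.

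Most of the least even shared genes met the rule by narrow gaps. Ltb4r1, the leukotriene B4 receptor, was -3.25 and -3.40 in WT-Tconv, -0.21 and 0.03 in WT-Treg, 4.77 and 4.84 in Nr4a-TKO-preTreg, and 0.12 and -2.67 in Foxp3-KO-preTreg, where replicate 2 came within 0.59 log2 units of WT-Tconv. Arhgap20, a GTPase-activating protein, ran the other way. It was between 3.99 and 4.28 on all WT-Treg and Foxp3-KO-preTreg arrays and at -2.05 and -1.51 in Nr4a-TKO-preTreg, within 0.28 of the WT-Tconv value of -2.34 (F-test adjusted p = 0.000301). Pparg and Plek had the pattern of Ltb4r1, and Ear2 was above WT-Tconv by at least 2.63 on every array. Among the decreases, Syt13 was -3.54 and -3.72 in WT-Treg but between -0.59 and 0.61 in the precursors, within 0.03 of WT-Tconv, and Cd163l1 came within 0.06 on Foxp3-KO-preTreg replicate 1. Lypd6b and Ampd1, the muscle-type AMP deaminase, were lowest in Nr4a-TKO-preTreg. The calls of Ltb4r1, Pparg, Plek, Cd163l1, Lypd6b, Syt13 and Ampd1 ended when either WT-Tconv array was left out.

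**Figure D4:**
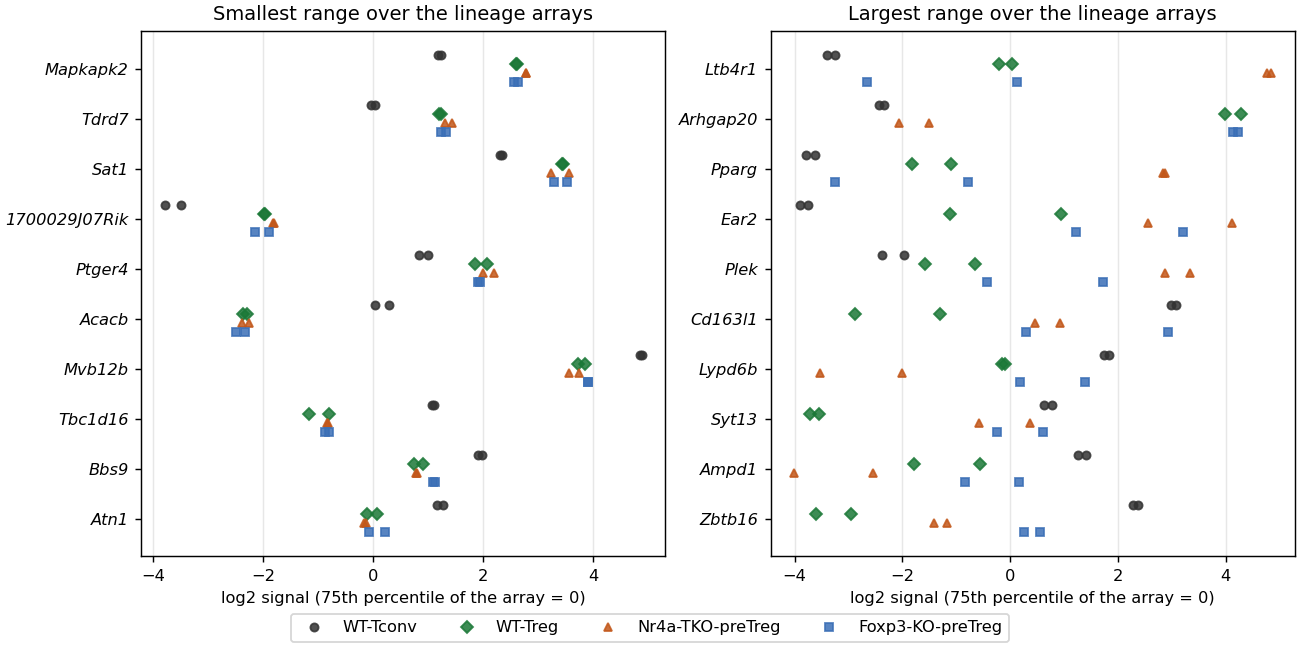
Log2 signal (x axis, 75th percentile of the array = 0) on each of the 8 arrays for the shared genes of at least 2-fold with the smallest (left) and the largest (right) range over the 6 lineage arrays, 5 higher and 5 lower in each panel; each point is an array. On the left the 6 lineage points of a gene form a single cluster, as in Acacb between -2.49 and -2.26, while on the right they are spread over 4.15 log2 units or more.

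**Figure D5:**
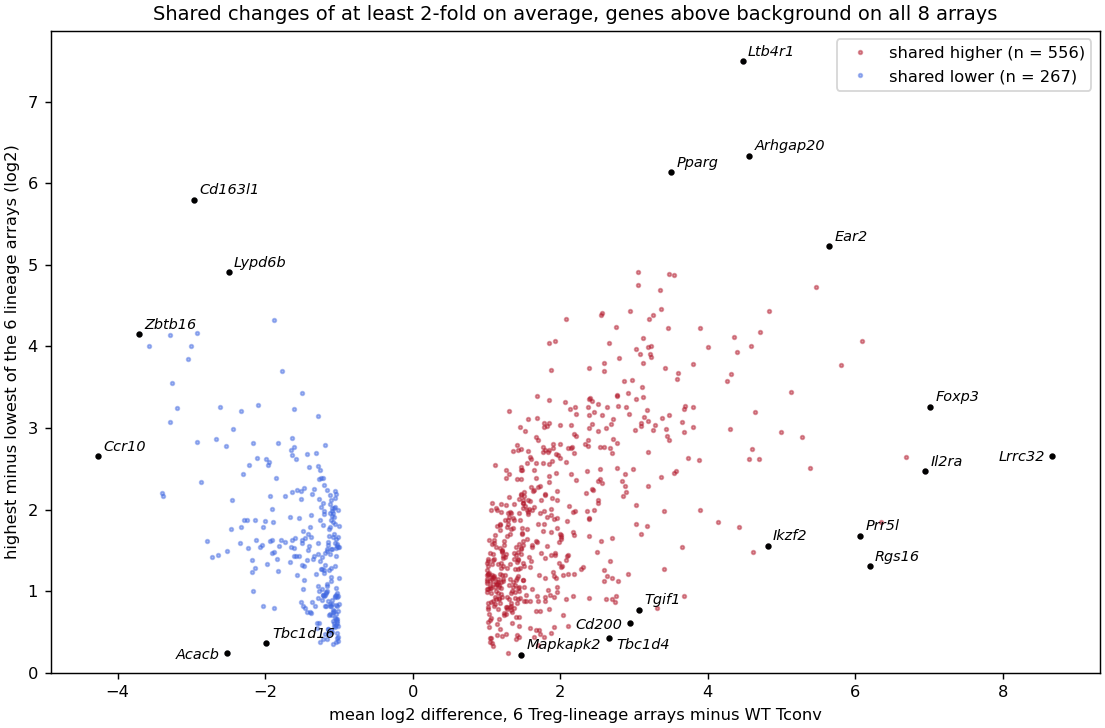
Highest minus lowest of the 6 lineage arrays (y axis, log2) against the mean difference from WT-Tconv (x axis, log2) for the 556 shared higher and 267 shared lower genes of at least 2-fold that were above background on all 8 arrays; each point is a gene. Rgs16 and Prr5l join a difference above 6 with a range under 2, and Ltb4r1 has the largest range, 7.50.

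Promoters of the leading genes are shown because the pathways named above act through factors with known binding letters. RefSeq promoters of build GRCm38.p6, from 250 bases before to 50 after each start site, were found for 295 of the 388 shared higher genes with a smallest gap of at least 1 and for 68 of the 100 such lower genes. Motifs were sought on both strands: AAAGGTCA, the NBRE site of Nr4a factors, TTCNNNGAA for STAT factors, GGGNN followed directly by TTTCC for NF-kB and TGANTCA for AP-1. No motif contains another, and overlapping matches were each counted. The NF-kB letters were in 4.61% of the 369 promoters of the higher genes and in 1.68% of the 13657 promoters of tested genes. The NBRE was in 2.98% against 1.11%, the STAT letters in 9.49% against 7.23% and the AP-1 letters in 8.4% against 5.41%. Among the 96 promoters of the lower genes these shares were 0%, 0%, 3.12% and 11.5%, in the order NF-kB, NBRE, STAT and AP-1. Over all 32851 promoters in the table they were 1.63%, 1.51%, 8.3% and 7.81%. Overlapping promoter windows of the same gene were counted separately, as for Casp4, Myadm and Fcgr3 among the NF-kB matches. Some matches lay in genes of the B cell and myeloid marker lists, such as Jchain (NBRE) and Fcgr1 (STAT), and their part in the shares was not tested. These are descriptions of letters, and binding was not measured. The 250 bases before the start site follow for 4 of the genes described above, 5′ to 3′ on the strand of the gene, with the matched letters in capitals.
Foxp3 (chrX:7580233-7580482, plus strand): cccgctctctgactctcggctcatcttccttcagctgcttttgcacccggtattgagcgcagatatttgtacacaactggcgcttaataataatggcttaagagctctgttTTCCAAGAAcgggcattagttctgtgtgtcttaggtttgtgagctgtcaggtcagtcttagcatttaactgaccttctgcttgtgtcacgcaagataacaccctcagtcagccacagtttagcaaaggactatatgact
Ccr6 (chr17:8235793-8236042, plus strand): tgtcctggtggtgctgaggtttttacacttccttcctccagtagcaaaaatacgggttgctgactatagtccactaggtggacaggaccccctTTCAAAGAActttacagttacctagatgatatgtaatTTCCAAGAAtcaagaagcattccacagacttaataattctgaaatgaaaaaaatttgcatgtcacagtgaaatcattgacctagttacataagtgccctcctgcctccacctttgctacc
Casp4 (chr9:5308599-5308848, plus strand): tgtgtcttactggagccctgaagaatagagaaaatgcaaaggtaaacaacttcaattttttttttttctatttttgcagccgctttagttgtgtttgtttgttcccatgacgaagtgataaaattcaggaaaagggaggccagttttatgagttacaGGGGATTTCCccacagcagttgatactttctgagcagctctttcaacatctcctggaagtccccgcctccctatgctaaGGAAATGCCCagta
Tgif1 (chr17:70849791-70850040, minus strand): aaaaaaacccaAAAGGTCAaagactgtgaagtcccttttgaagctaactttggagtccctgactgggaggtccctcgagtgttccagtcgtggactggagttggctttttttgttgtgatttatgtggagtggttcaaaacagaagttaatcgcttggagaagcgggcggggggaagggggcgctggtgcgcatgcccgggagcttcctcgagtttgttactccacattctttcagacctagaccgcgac
Foxp3 and Ccr6 hold 1 and 2 matches to the STAT letters, Casp4 holds 2 matches to the NF-kB letters, 1 on each strand, and Tgif1 holds 1 match to the NBRE. On the arrays Foxp3, Ccr6 and Casp4 spread over 3.26, 2.64 and 2.52 log2 units among the lineage arrays. Tgif1 spread over 0.77, with its lowest lineage value, 3.52, in Nr4a-TKO-preTreg.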

How the data were processed

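RNA from sorted thymocytes was labelled with Cy3 and hybridised to 8 one-colour Agilent arrays on 1 slide. Per the file headers and the submitters' processing notes, the authors' Feature Extraction software, version 10.7.1.1, made the deposited spot intensities, which are background-subtracted processed signals. The deposited flags per spot, such as the authors' well-above-background call, were used as given, and the authors' deposited matrix, which differs from the scanner intensities by a constant factor per array, served as an alternative. Per the labels, each population has 2 biological replicates, so p-values rest on 2 samples a group with 4 residual degrees of freedom.

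Control spots were left out, spots of a probe were averaged, log2 of the intensity minus each array's 75th percentile was taken, and the probe with the highest mean stood for a gene. Genes were named by matching the RefSeq accessions of the array design to the RefSeq tables. Of 55681 probes 28026 were named, and 1595 RefSeq accessions had no match. A model of the 4 groups was fitted with limma 3.58.1 in R 4.3.3 over all 13498 tested genes, with Benjamini-Hochberg adjusted p-values, and figures were drawn with matplotlib 3.10.9. The number of arrays limits the precision. Lower bounds set the bright group against the measured signal of the dim group. On each array that signal was raised, where lower, to the lowest signal among probes well above background. Undetected probes can lie above that level, so the bounds are approximate.

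The members, gene lists and tests were chosen with earlier results of these data known, so no list is independent evidence. The genes named by rule are the 10 higher and 10 lower with the largest smallest gap above background on all arrays, the 5 largest bounds each way, the 5 most and 5 least even each way at 2-fold or more, up to 4 shared members per list, and the gate and targeted genes. Other genes were named after their values were seen. The alternatives were quantile and median scaling, normexp with an offset of 50, the deposited matrix, other filters and probe rules, variance models, a 2-fold minimum, a replicate block, the slide row and leaving out arrays. On simulated arrays of 13497 genes, changes made in all 3 populations were found as shared in 50% of cases for 1.5-fold changes. For 2-fold, 4-fold and 8-fold changes it was 74%, 88% and 96%, and 17 of 13097 unchanged genes passed. Changes made in Nr4a-TKO-preTreg alone passed as shared in 0%, 8%, 8% and 12% of cases at these folds. The simulated noise was independent between arrays, and unchanged genes did not differ among populations, whereas 38.5% of the real genes did. The count of 17 therefore need not hold for the real arrays.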

Additional observations from a re-analysis of the deposited data

Results flagged for a closer look

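Among the leading genes, the least even genes and the gate and targeted genes, there were 25 in which the 3 lineage populations differed by the limma F-test among them, so the direction was shared and the size was not. The size given is the largest difference between 2 lineage population means, in log2 units, with 2 arrays per population. Among the increases it was 2.0 for Lrrc32, 1.97 for Il2ra, 3.0 for Foxp3, 2.09 for Ccr6, 1.39 for Prr5l, 1.41 for Cd83, 2.03 for Casp4, 1.31 for 4930431P03Rik and 1.31 for Ikzf2. For the gate and targeted genes it was 0.66 for Tnfrsf18 and 2.24 for Nr4a2. Among the decreases it was 2.47 for Ccr10, 1.62 for Pdlim4, 1.73 for Elovl7, 1.40 for Il17rb, 1.23 for Rnft2, 2.42 for Adamts14 and 3.68 for Zbtb16. In the genes with the largest ranges it was 6.07 for Ltb4r1, 5.96 for Arhgap20, 4.88 for Pparg, 4.22 for Plek, 3.55 for Lypd6b, 3.81 for Syt13 and 2.93 for Ampd1. These last were picked for their range, so their size is a description. The adjusted p of the F-test lay between 0.000301 for Arhgap20 and 0.0490 for Pdlim4.

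Probes without a gene symbol, which the comparison by gene does not use, carried shared changes too. Of 11886 such probes tested with limma, 689 were shared higher (5.8%) and 1510 shared lower (12.7%).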

How the results depend on the processing

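Among the 145 named genes no called direction reversed under the alternatives run, and directions of other genes were not compared. Apart from the gate and targeted genes, they were picked among genes whose 6 lineage arrays all lay beyond both WT-Tconv arrays. Leaving out arrays or changing the variance model could therefore not reverse their direction. With median scaling 5311 genes were called lower, 4430 shared lower and 1749 lower in all 3 comparisons, and 1373 of the 1751 shared higher and all 2867 shared lower genes were kept. Without a filter on dim probes 471 genes were lower in all 3 comparisons. With the 6 lineage arrays as a single group, which adds the spread between populations to the error, 636 genes were called higher and 840 lower, the same counts were shared, and 357 shared genes differed among the populations. With a 2-fold minimum 1339 were called higher and 466 lower (74.2% higher against 40.4%), 1074 and 414 were shared, and 857 of those differed. Within the slide row of WT-Tconv, which holds the Nr4a-TKO-preTreg arrays alone, 2895 were shared higher. Leaving out each array in turn gave 945 to 2798 genes called higher, 718 to 4176 lower, 866 to 2166 shared higher, 674 to 3492 shared lower, 205 to 1135 higher and 78 to 1301 lower in all 3 comparisons, and 750 to 2414 shared genes that differed. The lowest of these counts came without WT-Tconv replicate 1 and the highest without Foxp3-KO-preTreg replicate 2. Without WT-Tconv replicate 2, 1003 were called higher and 750 lower. A lone WT-Tconv array is assumed to vary like the other groups. The last 2 alternatives were chosen after seeing the data: without both Nr4a-TKO-preTreg arrays 1337 shared higher and 2062 shared lower genes were kept, and without Nr4a-TKO-preTreg replicate 2 and Foxp3-KO-preTreg replicate 1, 1657 and 2637. The causes of these shifts were not tested.

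Deviations of same-numbered replicates correlated across genes at 0.15 to 0.26 between the lineage populations and at -0.03 to -0.01 between these and WT-Tconv. The labels tie the numbers to nothing, so the block was kept as an alternative. With the replicate number as a block 2394 genes were called higher and 3304 lower, 1738 and 2702 were shared, and 2 of the 145 named genes lost their call. Of those 145, 36 lost it without either WT-Tconv array, 49 with the lineage as a single group, 14 without both Nr4a-TKO-preTreg arrays, 10 within the slide row, and 8 or fewer under each other alternative, though 21 were not shared with a 2-fold minimum and the filter on all 8 arrays tested 112 of them. Between 47.7% and 52.1% of probes per array were above background, and dimmer genes have bounds only.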

Other observations

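Among unnamed probes above background on all 8 arrays, the 3 with the widest shared separation came from a single place. The array design gives 5 probes the mm9 interval chr1:69531191-69570566, reverse strand, and all 5 were shared higher. In 4 of them the mean differences were 4.55 to 4.62 and the smallest gaps 3.28 to 3.46, and the remaining probe lay below the background level in WT-Tconv, so its difference is not given. The probe A_30_P01027585 was at -0.91 and -1.15 in WT-Tconv, 4.29 and 4.07 in WT-Treg, 2.76 and 2.49 in Nr4a-TKO-preTreg, and 3.89 and 3.91 in Foxp3-KO-preTreg. All 6 lineage values were above both WT-Tconv values, with Nr4a-TKO-preTreg the lowest of the lineage (4.59 ± 0.12, limma adjusted p = 9.95e-05). The probes share the interval, so they are not independent of each other, and no gene is named for them here. Among unnamed probes with a position, shared increases fell in 205 distinct intervals and shared decreases in 509.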
